A study of Mus musculus with 2 samples.

Results

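Smooth muscle cells and pericytes were taken from 2 single-cell libraries of mouse bowel and mesenteric adipose tissue (MAT) by a rule on deposited unique molecular identifier (UMI) counts. A barcode was kept if it held at least 500 gene UMIs and 300 genes and under 20% mitochondrial UMIs. It was then chosen if it held no UMI of Ptprc, Epcam or Pecam1, markers of leukocytes, epithelium and endothelium, and at least 3 UMIs summed over Myh11, Actg2, Des, Cnn1, Rgs5 and Notch3. The rule found 254 of 51389 kept cells: 88 of 9246 in the colotomy library and 166 of 42143 in the sham library. Cells with a UMI of Actg2 or Des, the intended visceral muscle class, numbered 45 in colotomy and 97 in sham. Cells with Rgs5 or Notch3 but neither Actg2 nor Des, the intended vascular mural class, numbered 38 in colotomy and 54 in sham. The remaining 5 colotomy and 15 sham cells had been chosen on Myh11 or Cnn1 alone and had none of these 4 genes.

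The study compared surgery on the colon (colotomy) with sham surgery in B6/C57 mice of 8 to 12 weeks, at postoperative day 14. Each group is 1 library in which digested bowel and MAT cells were marked with a hashtag antibody per tissue and run together, without a sort for a cell type. How many mice entered a library is not given in the labels. With 1 library per group no difference between colotomy and sham could be tested, and every interval below is an exact 95% interval for counting error only.

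Smooth muscle shortens by sliding actin thin filaments along smooth muscle myosin, after calcium and calmodulin switch on the kinase that phosphorylates the myosin light chain. In the bowel it forms the circular and longitudinal layers and the muscularis mucosae, and around arteries and veins it sets vessel bore. Pericytes are the mural cells of capillaries, held to the endothelium by platelet-derived growth factor signalling through Pdgfrb and kept in their state by Notch3, and they carry few contractile filaments. Many smooth muscle genes carry CArG boxes, the DNA element bound by serum response factor, which acts there with its partner myocardin.

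The promoters of 3 genes on which the results turn are shown from RefSeq (GRCm38.p6), 250 bases before to 50 after the annotated start on the gene's own strand: Acta2 and Myl9, contractile genes that divide the 2 classes, and Rgs5, the marker on the mural side. Capitals mark matches to the CArG box, in Myl9 the full box (first base 161 before the start) and in Acta2 boxes with 1 base of the A/T core left free (first bases 84 and 34 before the start). Acta2 lies at chr19:34255324-34255623 on the minus strand, Myl9 at chr2:156775214-156775513 on the plus strand and Rgs5 at chr1:169655251-169655550 on the plus strand.
Acta2: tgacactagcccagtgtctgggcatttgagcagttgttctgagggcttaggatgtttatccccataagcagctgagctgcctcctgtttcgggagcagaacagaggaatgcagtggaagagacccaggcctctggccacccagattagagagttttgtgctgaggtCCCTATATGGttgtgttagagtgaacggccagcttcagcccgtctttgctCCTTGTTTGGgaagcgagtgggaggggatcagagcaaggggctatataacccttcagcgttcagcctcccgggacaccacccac
Myl9: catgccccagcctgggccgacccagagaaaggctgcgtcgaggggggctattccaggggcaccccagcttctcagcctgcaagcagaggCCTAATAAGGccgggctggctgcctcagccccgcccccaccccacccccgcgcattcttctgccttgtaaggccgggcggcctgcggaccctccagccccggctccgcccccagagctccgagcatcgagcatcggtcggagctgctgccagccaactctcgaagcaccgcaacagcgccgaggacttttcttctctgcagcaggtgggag
Rgs5: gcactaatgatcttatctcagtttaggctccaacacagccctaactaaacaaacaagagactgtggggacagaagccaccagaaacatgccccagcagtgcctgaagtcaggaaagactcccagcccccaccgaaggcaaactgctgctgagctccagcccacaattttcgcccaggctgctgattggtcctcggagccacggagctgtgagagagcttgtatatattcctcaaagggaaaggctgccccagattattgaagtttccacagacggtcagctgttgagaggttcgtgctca
Both strands of each promoter were searched. Of the 19 contractile genes listed for the analysis, 16 had a RefSeq promoter, and 2 of these (12.5%), Myl6 and Myl9, held a full CArG box, against 1.81% of 27025 genes. With 1 core base free, Acta2 joined them and the share was 18.8% of the 16 genes, against 11.3% of all genes. None of the 11 pericyte genes with a promoter matched either form, which says only that these letters are absent from this window.

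The 2 libraries differed in depth and make-up, which bears on each comparison between them. The colotomy library held 15547 barcodes and 12002711 gene UMIs, with a median of 778.5 UMIs per kept cell, and the sham library 44814 barcodes and 74006762 UMIs, with a median of 1328. They shared 190 barcode sequences, which 1 colotomy and 2 sham member cells carried. The hashtags followed the library and not a mixture of tissues: 87.2% of kept colotomy cells but 0.263% of kept sham cells were called bowel. For MAT the shares were 0.173% and 26.1%. No tissue is therefore given for any cell. Xist, the RNA of the inactive X chromosome, stood at 519 UMIs per 1000000 gene UMIs (CPM) in colotomy members, in 19 cells, and in 1 cell of the sham members. Summed Y-linked genes stood at 141 CPM in colotomy and 248 CPM in sham members. Surgery, animal, tissue make-up and library cannot be told apart.

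Members made up 0.952% (0.764 to 1.17) of kept cells in the colotomy library and 0.394% (0.336 to 0.458) in the sham library, a ratio of 2.42 (1.84 to 3.15). The libraries held different shares of other cells, so the denominator moves this ratio. Among the 5974 colotomy and 11131 sham cells with no Ptprc, Epcam or Pecam1 UMI, members were 1.47% and 1.49%, a ratio of 0.988 (0.754 to 1.29). The Actg2/Des-positive class was 54.2% (42.9 to 65.2) of the divided cells in colotomy and 64.2% (56.0 to 71.9) in sham, and these intervals overlap.

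The exclusion genes removed many barcodes that carried the muscle markers. Of barcodes with at least 3 marker UMIs, 23 of 111 in colotomy (20.7%) and 251 of 417 in sham (60.2%) held a UMI of an excluding gene, in 209 of the sham barcodes Ptprc. Among all kept barcodes with Ptprc, 0.862% in colotomy and 0.758% in sham reached 3 marker UMIs. The 61 sham barcodes with Ptprc and at least 11 marker UMIs carried 6409 CPM of Acta2, so muscle RNA and leukocyte RNA lay in the same droplets. Whether these were doublets was not tested, and no doublet caller was run.

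At the threshold, 19 colotomy and 25 sham members held exactly 3 marker UMIs, and 39 colotomy and 51 sham barcodes stood just outside it with 2. Acta2, which the rule did not use, averaged 1299 CPM in colotomy and 2182 in sham at 3 UMIs, against 515 and 639 at 2 UMIs. It was at 6056 CPM in colotomy and 10629 in sham in members with 11 or more. Acta2 thus climbed with the marker sum on both sides of the threshold.

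Set against the other 41977 sham cells, the members carried the genes of contractile vascular and visceral cells. These values follow from the choice of cells and are a description. Of 17642 genes, 9.07% were at least 2-fold higher in members with a counting interval above 1, and 3.02% lower. Among the 24 genes with the highest ratio and at least 100 CPM were the thin filament proteins Acta2 (6038 CPM in members, 41.7 in other cells, 145-fold), Tagln (137-fold) and Tpm2 (81.4-fold). Myl9, the regulatory light chain, was 128-fold higher and Mylk, its kinase, 69.8-fold. The first place went to Pln, phospholamban, the brake on the calcium pump of the sarcoplasmic reticulum, at 160 CPM in members and 0.670 in other cells (239-fold, 153 to 372). Lmod1, which nucleates actin filaments, the M-band protein Myom1, the actinin-binding Pdlim3 and the long non-coding RNA Carmn were 111-, 69.2-, 64.0- and 70.1-fold higher. Signalling genes among the 24 were Gucy1b1, the nitric oxide receptor subunit (53.2-fold), Npy1r, the neuropeptide Y receptor (55.2-fold), Rgs4 (86.5-fold) and Abcc9, the sulphonylurea receptor of vascular potassium channels (62.3-fold). The adhesion receptors Itga8 (89.1-fold) and Itga7 (48.4-fold), the diacylglycerol kinase Dgkb (164-fold), Ppp1r14a (53.4-fold), the proteoglycan Cspg4 (52.5-fold), Atp1b2 (48.5-fold), Rgs7bp (52.7-fold), Cpxm2 (77.9-fold), Pcp4l1 (58.8-fold) and Id4 (53.4-fold) completed them.

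Set against 2980 fibroblast-marked and 250 endothelial-marked sham cells, members were higher in both comparisons in all 16 contractile genes that the rule had not used. Backgrounds were 5.91% of 12972 genes higher and 4.03% lower against fibroblast-marked cells, and 7.23% of 8260 genes higher and 9.27% lower against endothelial-marked cells. Of 21 interstitial matrix genes 2 were higher and 16 lower than in fibroblast-marked cells, and 15 were higher and 1 lower than in endothelial-marked cells. Sham members thus lay between those cells in matrix RNA: Col1a1 was at 563 CPM in members, 2049 CPM in fibroblast-marked and 204 CPM in endothelial-marked cells. Npnt and Tnc, nephronectin and tenascin C, were the matrix genes higher in members than in fibroblast-marked cells.

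Markers of other cells were looked for in the members. Of 8 endothelial markers summed, sham members of the Actg2/Des-positive class held 8 UMIs (51.9 CPM) and Rgs5/Notch3-only cells 15 (203 CPM), against 251 CPM in other sham cells. Immune markers summed to 3254 and 3592 CPM in these classes, against 7857 CPM in other sham cells. They include Ptprc, which the rule sets to 0 in members, so part of this difference follows from the choice of cells. Fibroblast markers were at 3993 and 5888 CPM, against 22934 CPM in 2980 fibroblast-marked sham cells, and 69 of 166 sham members (41.6%) held a UMI of Dcn, Pdgfra or Lum. In colotomy this was 54 of 88 members (61.4%). Among all other kept cells the share was 57.2% in colotomy and 26.8% in sham, and among lymphocyte-marked cells 33.3% and 20.8%. The colotomy share in members was thus near that of the whole library. Fibroblast RNA therefore lay in many member barcodes, and values in members without it are given beside the colotomy results. Apart from Pecam1, which the rule sets to 0, the endothelial genes Cldn5 and Kdr were at 0 in 1 sham class each.

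Genes known from bowel muscle gave a mixed reading of the label visceral. Of 14 measured genes of that list outside the rule, 13 were higher in sham members than in other sham cells and none lower, among them Foxf1, Hand2 and Nkx2-3, regulators of gut mesenchyme. Over all genes 9.07% were higher. Against fibroblast-marked sham cells 8 of 12 were higher and none lower, where 5.91% of all genes were higher. Foxf1 was among these 8, and Hand2 and Nkx2-3 were not. Between the 2 sham classes, 3 of 8 measured genes outside the rule were higher in Actg2/Des-positive cells and none lower: Synm, Ckb and Synpo2. Over all genes 3.3% were higher in that comparison. Of the 97 sham Actg2/Des-positive cells, 65 (67.0%) also held a UMI of Rgs5 or Notch3, and of the 45 in colotomy 24 did. The rarest genes of the list gave few UMIs: in sham the muscarinic receptor genes Chrm2 and Chrm3 had 3 and 1 UMIs, the neurokinin receptor gene Tacr2 and Barx1 1 each, and all 4 had none in colotomy. Des is also made by vascular mural cells. Because so many cells held genes of both sides, the classes are called here by their genes, Actg2/Des-positive and Rgs5/Notch3-only.

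**Figure D1:**
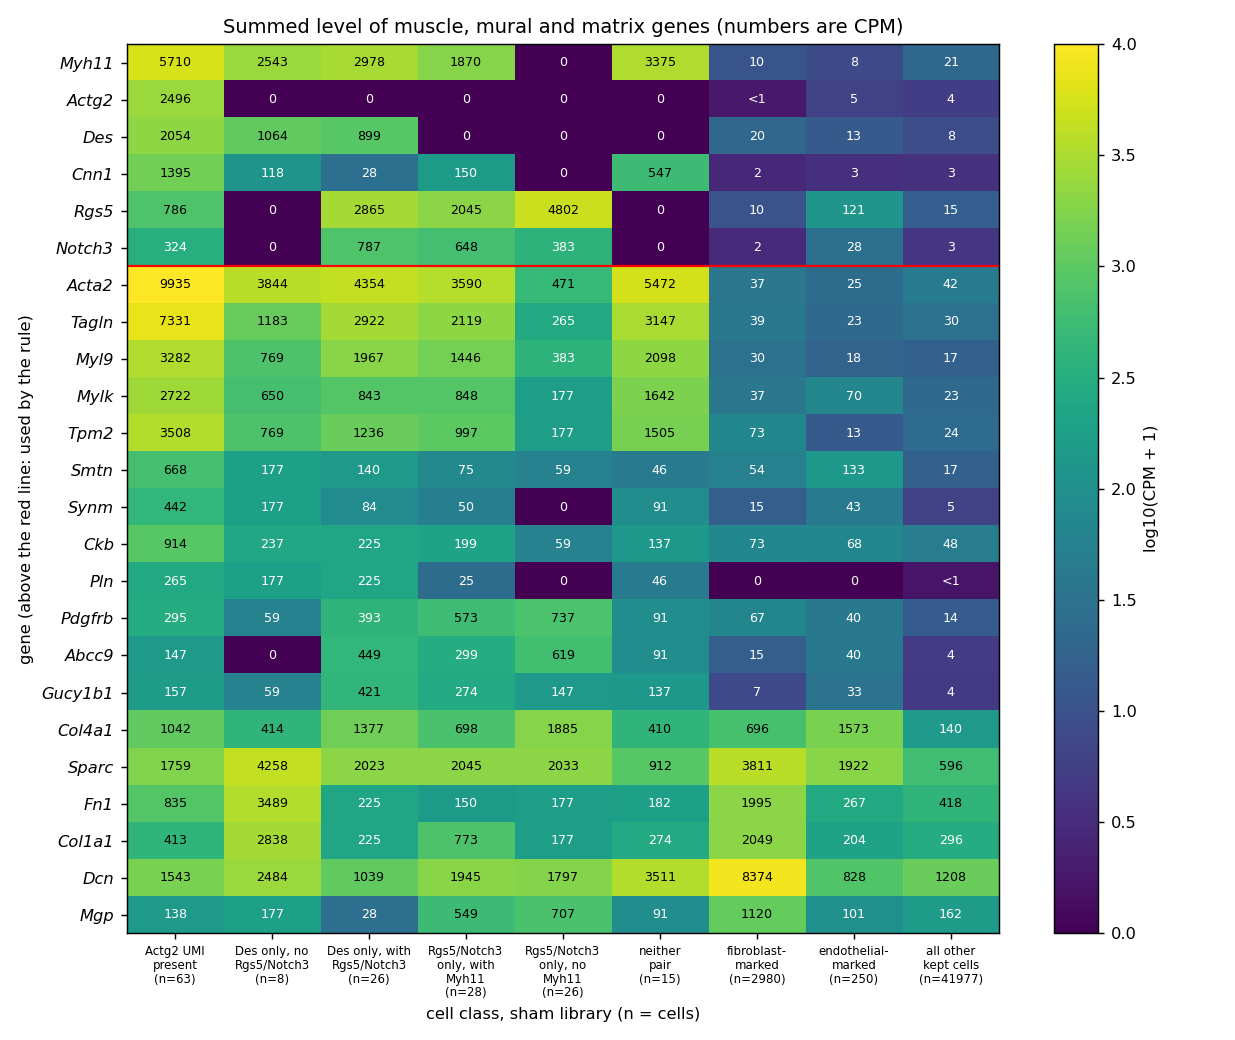
Summed level (CPM, printed in each cell and coloured as log10(CPM + 1)) of 24 genes in the sham library. Columns are subclasses of the members and, at the right, fibroblast-marked, endothelial-marked and all other kept cells; rows above the red line were used by the rule. Acta2 stands at 9935 CPM in cells with an Actg2 UMI and at 471 CPM in Rgs5/Notch3-only cells without Myh11.

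The sham subclasses differed in contractile RNA, with much in Actg2-bearing cells and little in Rgs5/Notch3-only cells without Myh11, as the heat map shows. High Rgs5 in the latter follows in part from the rule. Cells without Actg2, Des or Myh11 could reach its marker minimum only on Rgs5, Notch3 or Cnn1. In the 63 cells with an Actg2 UMI, the enteric smooth muscle actin, Acta2 stood at 9935 CPM and Tagln at 7331 CPM, each above its level in the other subclasses of the figure. Acta2 was at 10668 CPM in the 39 of them that also held Rgs5 or Notch3 and at 8498 CPM in the 24 that did not. Among Actg2-bearing cells it was thus not lower where Rgs5 or Notch3 was present. Myocd, the coactivator of serum response factor, had 10 UMIs in 9 of these 63 cells and none in any other sham member.

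The 34 sham cells with Des but no Actg2 fell into unlike sets. The 26 with Rgs5 or Notch3 carried Abcc9 at 449 CPM, Pdgfrb at 393 CPM and Cnn1, calponin, at 28.1 CPM, against 147, 295 and 1395 CPM in the Actg2-bearing cells. The 8 without them held Col1a1 at 2838 CPM and Fn1 at 3489 CPM, against 413 and 835 CPM in the Actg2-bearing cells, with Acta2 still at 3844 CPM. Those 8 cells are few, and 4 of them held all 48 Col1a1 UMIs. In the 26 cells Cnn1, a gene of the rule, lay under 84.3 CPM, the level of 3 UMIs over that subclass.

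Rgs5/Notch3-only cells also divided on Myh11, smooth muscle myosin heavy chain. The 28 sham cells with Myh11 had Acta2 at 3590 CPM and Rgs5 at 2045 CPM, and the 26 without it had Acta2 at 471 CPM and Rgs5 at 4802 CPM. Abcc9 was at 299 CPM with Myh11 and 619 CPM without it, and the basement membrane collagen Col4a1 at 698 CPM with it and 1885 CPM without it. In colotomy, where 13 cells had Myh11 and 25 did not, Acta2 was at 4648 and 1490 CPM, Rgs5 at 3889 and 6517 CPM, and Col4a1 at 759 and 2653 CPM. Acta2 and Col4a1, which the rule did not use, differed in the same direction in both libraries, and Abcc9 is given for sham only. The Rgs5 difference follows in part from the rule and is not read as a shared result. Cells of this class without Myh11 could reach the marker minimum only on Rgs5, Notch3 or Cnn1.

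In the sham library the Actg2/Des-positive cells exceeded the Rgs5/Notch3-only cells in nearly all contractile genes, and 3 of 11 pericyte genes outside the rule were lower. Genes with at least 10 UMIs over both classes were compared and called at a 2-fold difference whose counting interval excluded 1: of 4036 genes, 133 were higher (3.3%) and 111 lower (2.75%). The median log2 ratio over these genes was 0.07. Of the 19 contractile genes 18 were called higher and none lower. Leaving out Myh11, Cnn1 and Actg2, which the rule used, 15 of 16 were higher, with a median log2 ratio of 1.59. Actg2 and Des are muscle genes themselves, so the division placed cells rich in muscle RNA in the first class, and this count describes that division.

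Acta2, alpha smooth muscle actin (chr19:34241090-34255590, minus strand, mm10), stood at 7979.8 CPM (7540 to 8438) in Actg2/Des-positive cells and 2161 CPM (1839 to 2523) in Rgs5/Notch3-only cells, 3.69-fold (3.13 to 4.38). It was found in 87 of 97 and 32 of 54 cells. Tagln, transgelin, an actin-binding protein, was at 5640 and 1269 CPM (4.44-fold, 3.59 to 5.56). Both intervals lie well above the 2-fold threshold. Tpm2, beta-tropomyosin, was 4.32-fold higher (3.18 to 5.99), Mylk 3.82-fold (2.74 to 5.44) and Myl9 2.82-fold (2.19 to 3.68). Smtn, smoothelin, which marks contractile smooth muscle, was 7.30-fold higher (2.99 to 23.1), and the myosin phosphatase subunit Ppp1r12b 7.04-fold (2.26 to 35.4).

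Thinned to 500 UMIs per cell, Acta2 was detected in 82.5% of Actg2/Des-positive and 46.3% of Rgs5/Notch3-only sham cells, from 89.7% and 59.3% unthinned. Lymphocyte-marked sham cells, which should lack it, showed it in 0.997% when thinned. Median depths were 1363, 1236.5 and 1653 UMIs. The difference between the classes therefore remained at equal depth.

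**Figure D2:**
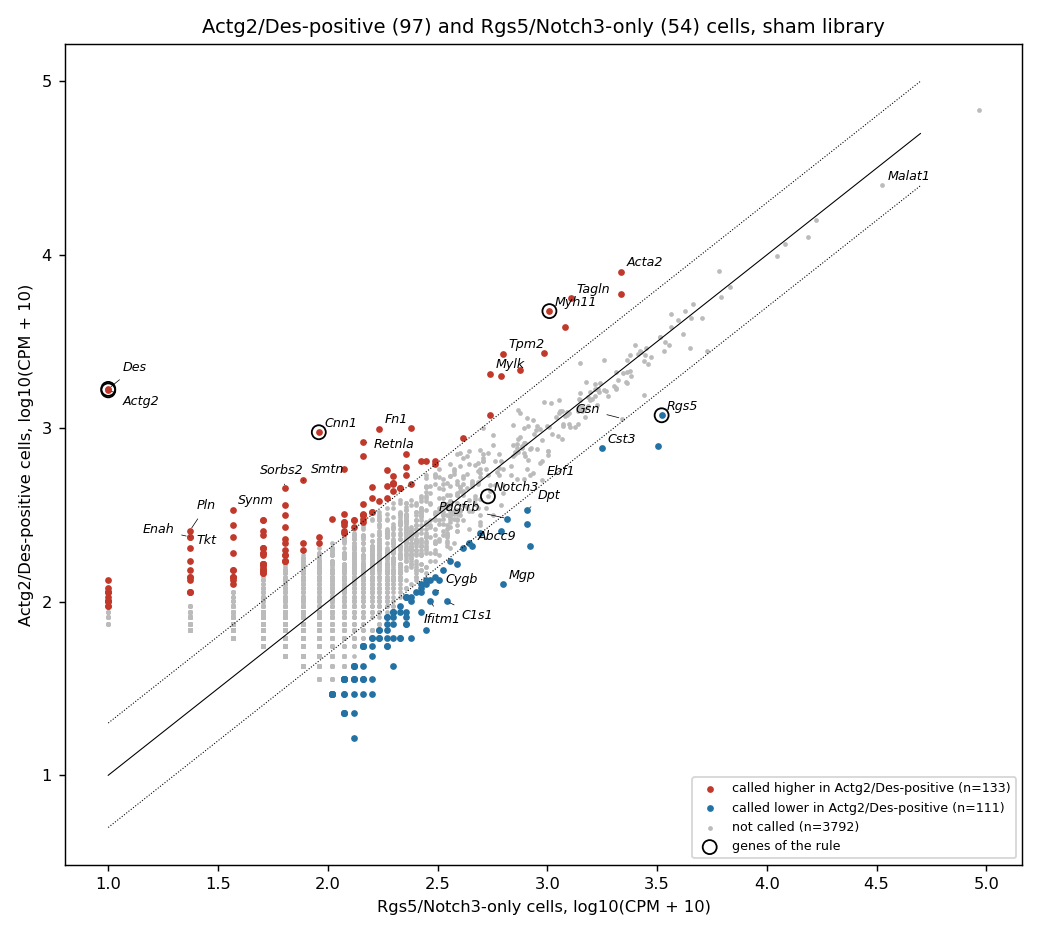
Level of each of 4036 genes in Actg2/Des-positive (vertical axis) and Rgs5/Notch3-only cells (horizontal axis) of the sham library, as log10(CPM + 10), with lines at equality and at 2-fold. Red points are the 133 genes called higher, blue the 111 called lower, and rings mark genes of the rule; contractile genes such as Acta2, Tagln and Tpm2 lie above the upper line.

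Genes of the intermediate filaments and of the muscle cell's anchor points followed. Of 16 measured genes of this list outside the rule 5 were called higher and none lower: Synm, Actn1, Flna, Ilk and Cav1. Synm, synemin, the partner of desmin, had 51 UMIs in 20 Actg2/Des-positive cells and 2 UMIs in Rgs5/Notch3-only cells (331 and 27.0 CPM, 12.2-fold, 3.22 to 104). Flna, filamin A, was at 2165 and 743 CPM (2.92-fold, 2.19 to 3.95). Sorbs2 (8.16-fold, 3.04 to 30.8) and Enah (16.8-fold, 2.82 to 682), which act on actin at adhesions, were also among the 12 highest genes. Ckb, brain-type creatine kinase, known for high levels in bowel muscle, was at 681 and 135 CPM (5.04-fold, 2.63 to 10.8).

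Of 11 measured genes of calcium handling and ion channels 2 were called higher in Actg2/Des-positive cells, 1 lower and 8 in neither direction. Pln had 38 UMIs in the first class and 1 in the second (246 and 13.5 CPM, 18.2-fold, 3.08 to 739), and P2rx1, the ATP-gated channel of smooth muscle, 20 and 1 (9.60-fold, 1.54 to 398). Abcc9 was lower, at 201 CPM in Actg2/Des-positive and 446 CPM in Rgs5/Notch3-only cells (0.451, 0.267 to 0.760). Npy1r was at 246 and 40.5 CPM (6.08-fold, 1.93 to 30.8), whereas the nitric oxide receptor subunits did not pass: Gucy1b1 was at 207 and 216 CPM and Gucy1a1 at 214 and 297 CPM.

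Of 11 measured pericyte genes outside the rule 3 were called lower in the Actg2/Des-positive class and none higher. Pdgfrb was at 292 CPM in that class and 648 CPM in Rgs5/Notch3-only cells (0.450, 0.293 to 0.690), Vtn, vitronectin, at 32.4 and 121.5 CPM (0.267, 0.0702 to 0.886), and the third was Abcc9. Other pericyte genes were too rare to place: Kcnj8 and Higd1b had 7 and 4 UMIs each in the 2 classes. Cspg4, NG2, a pericyte antigen, ran the other way without passing (20 and 4 UMIs, 2.40-fold, 0.804 to 9.66).

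Matrix genes divided the classes in few cases. Fn1, fibronectin, was at 985 CPM in Actg2/Des-positive and 162 CPM in Rgs5/Notch3-only cells (6.08-fold, 3.38 to 12.0), but 1 cell gave 25.7% of the first class's UMIs. Hspg2, perlecan, was the 1 of 14 basement membrane genes called (2.46-fold, 1.14 to 6.08). Mgp, matrix Gla protein, an inhibitor of calcification, was lower, at 117 and 621 CPM (0.188, 0.103 to 0.330), with 34.8% of the second class's UMIs in 1 cell. The lowest genes also included Cst3, a protease inhibitor (0.429), and C1s1, Dpt, Ifitm1 and Cygb (0.269 to 0.415). Gsn, Ebf1 and Malat1 belonged to the 12 lowest but did not reach 2-fold (0.516, 0.529 and 0.754). Retnla (6.10-fold) had 45.7% of its UMIs in 1 cell, and Tkt (16.8-fold) had 35 UMIs against 1.

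The colotomy library divided in the same direction on fewer UMIs. Of 1358 genes 82 were higher (6.04%) in its 45 Actg2/Des-positive cells and 42 lower (3.09%) than in its 38 Rgs5/Notch3-only cells. Outside the rule, 6 of 15 contractile genes were higher and none lower, and 4 of 7 pericyte genes were lower and none higher: Rgs4, Steap4, Abcc9 and Pdgfrb. Tagln was 2.32-fold higher (1.71 to 3.20), Mylk 2.47-fold (1.56 to 4.06) and Acta2 1.48-fold (1.13 to 1.95), under the threshold. Collagen genes divided these cells in colotomy where they had not in sham: Col1a1 was at 10569.5 CPM in Actg2/Des-positive and 3310 CPM in Rgs5/Notch3-only colotomy cells (3.19-fold, 2.59 to 3.97), and in sham at 635 and 500 CPM (1.27-fold, 0.863 to 1.91). The difference between those ratios was not tested.

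**Figure D3:**
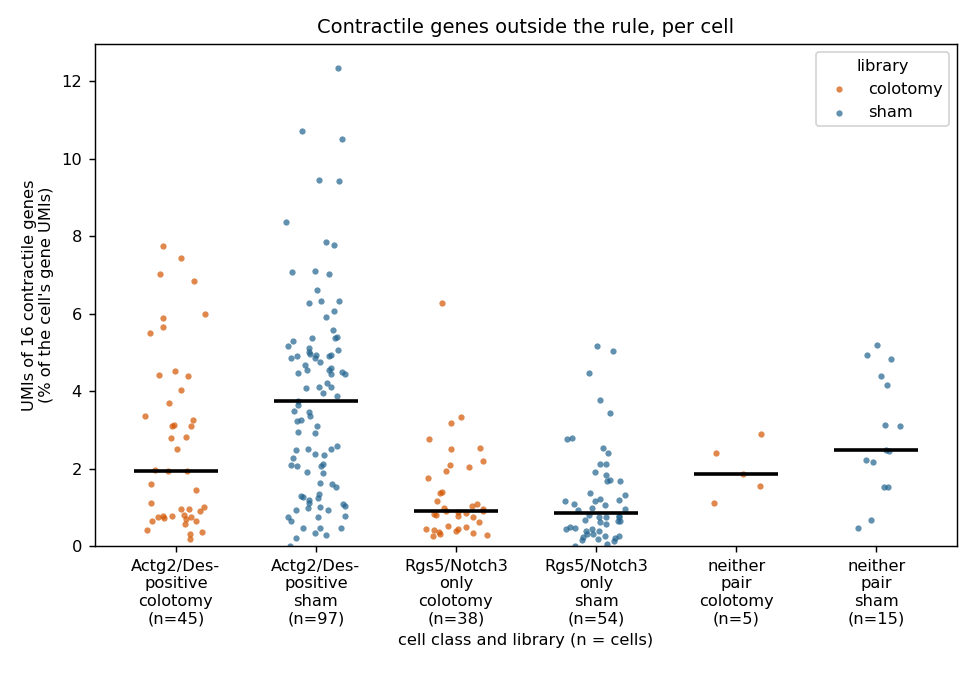
Share of each cell's gene UMIs given by 16 contractile genes that the rule did not use, by class and library; each point is a cell and black bars are medians. The medians are 1.96% and 3.74% in Actg2/Des-positive cells of colotomy and sham and 0.909% and 0.872% in Rgs5/Notch3-only cells.

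Per cell, the 16 contractile genes outside the rule took a lowest, median and highest share of 0.185%, 1.96% and 7.76% of UMIs in colotomy Actg2/Des-positive cells, against 0%, 3.74% and 12.3% in sham. In Rgs5/Notch3-only cells the shares were 0.267%, 0.909% and 6.29% in colotomy, against 0%, 0.872% and 5.18% in sham. The classes and libraries overlap over most of their range, and the highest values lie in sham Actg2/Des-positive cells. Cells with neither pair of genes had medians of 1.87% in colotomy and 2.48% in sham, on 5 and 15 cells.

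Actg2/Des-positive cells of the colotomy library carried more matrix and less contractile RNA than those of the sham library. Genes were called here at 1.5-fold with an interval that excluded 1: of 3627 genes 239 were higher (6.59%) and 193 lower (5.32%) in colotomy. Of 20 measured genes of the interstitial matrix list 17 were higher and none lower, with a median log2 ratio of 2.01 against -0.07 over all genes. Of 16 contractile genes outside the rule 6 were lower and none higher, with a median of -0.56. Fibroblast-marked cells differed in the same direction for matrix, with 13 of 21 interstitial matrix genes higher on a background of 10.6% of 13733 genes. So did all other kept cells: 21 of 21 were higher, with a median log2 ratio of 2.48. Of 17938 genes there, 4991 were higher and 2260 lower. The matrix difference was thus not confined to Actg2/Des-positive cells, and whether it was larger in them than in the rest of the library was not tested.

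Col1a1, the alpha 1 chain of type I collagen, was at 10569.5 CPM (9675 to 11525) in colotomy and 635 CPM (516 to 774) in sham Actg2/Des-positive cells, 16.6-fold (13.4 to 20.9). In fibroblast-marked cells it was at 10025 and 2049 CPM. Col1a2, its partner chain, was 10.4-fold higher (8.61 to 12.5), and Sparc, a collagen-binding matricellular protein, 3.82-fold (3.29 to 4.44). In colotomy Col1a1 thus stood about as high in these cells as in fibroblast-marked cells. Col12a1 (30.2-fold, 14.6 to 72.5), Col8a1 (50.9-fold, 16.4 to 255) and Thbs2, thrombospondin 2 (25.4-fold, 9.02 to 99.0) were among the highest. Col11a1 had 20 UMIs in colotomy and none in sham, at least 21.2-fold higher against a floor of 3 counts over the class.

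Signals that shape the bowel's stem cell niche were among the called genes, with 5 of 11 higher and 1 lower. Fibroblast-marked cells shared this: 7 of 16 were higher in colotomy, Ptn, Grem1 and Sfrp1 among them, and 2 lower. Over all genes there, 10.6% were higher and 10.5% lower. In sham, 7 of 16 were lower in members than in fibroblast-marked cells, among them Sfrp1, Grem1, Wnt5a and Bmp4, and 3 were higher. Sfrp1, a secreted inhibitor of WNT ligands, had 33 UMIs in 11 colotomy cells and 1 in sham (105-fold, 17.6 to 4267), and Grem1, the antagonist of BMP ligands, 26 in 7 cells and 2 in sham (41.3-fold, 10.3 to 359). Ptn, pleiotrophin, was 13.4-fold higher (7.25 to 26.8), Wnt5a 4.77-fold (1.52 to 16.3) and Bmp4 4.24-fold (1.29 to 14.8). Igfbp5, which binds insulin-like growth factors, was lower (0.608, 0.422 to 0.856), though in members with no fibroblast gene it was higher (1.67-fold, 1.19 to 2.31). Of 11 measured genes of the wound list 10 were higher, among them Thbs1 (4.97-fold), Timp1 (5.65-fold), Mmp14, Lox, Tnc and Postn. In fibroblast-marked cells 21 of 21 wound genes were higher. In members with no fibroblast gene 2 of 7 measured wound genes were higher, Col1a1 and Thbs1, and the median log2 ratio of the list was 0.33, against 2.41 in Actg2/Des-positive cells. Of the niche signals 2 could be measured there, and Igfbp5 was the 1 called. Itm2a was 21.5-fold higher. Zg16 and Tff3, goblet cell products, were also among the 12 highest, and 1 cell gave 88.4% and 95.5% of their UMIs.

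Contractile genes ran the other way. Acta2 was at 3750 CPM (3225 to 4336) in colotomy and 7979.8 CPM (7540 to 8438) in sham Actg2/Des-positive cells (0.470, 0.400 to 0.549). Myl9 was at 1030 and 2703 CPM (0.381, 0.278 to 0.512), Tpm2 at 1257 and 2684 CPM (0.468, 0.352 to 0.614), and Synm at 82.4 and 331 CPM (0.249, 0.0654 to 0.678). Tagln (0.694, 0.590 to 0.813) and Mylk (0.900, 0.704 to 1.14) were not called. Myocd had no UMI in colotomy. Other low genes were Crip1 (0.434), Naca (0.221), Cavin3 (0.0589), Atp5g1 (0.0757), Gpc6 (0.0859) and Retnla (0.0751), and Pafah1b1, Ktn1, Taldo1 and Lims2 had no UMI in colotomy and 23 to 33 in sham. The 2 libraries' classes also differed in make-up: 19 of 45 colotomy cells held Actg2, against 63 of 97 sham cells. A UMI of Dcn, Pdgfra or Lum was held by 30 of these colotomy and 41 of these sham cells. Among Actg2-bearing cells Acta2 stood at 4489.7 CPM in colotomy and 9935 CPM in sham.

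**Figure D4:**
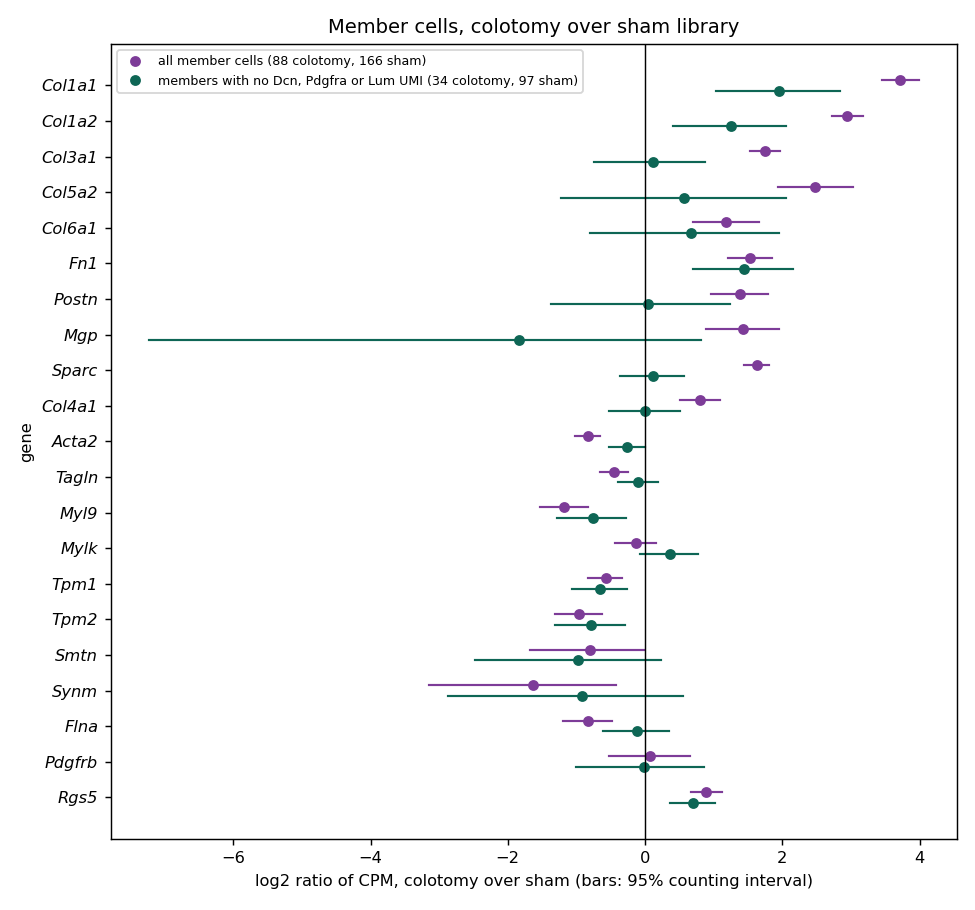
Log2 ratio of CPM, colotomy over sham, for 21 matrix, contractile and mural genes in all members (purple) and in members with no UMI of Dcn, Pdgfra or Lum (green), with 95% counting intervals. Col1a1 moves from 3.72 in all members to 1.95 without the cells that hold fibroblast genes, and Sparc from 1.63 to 0.12.

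The matrix difference was smaller in members that held no fibroblast gene. Of all members, 88 in colotomy and 166 in sham, 352 of 5564 genes were higher (6.33%) and 275 lower (4.94%) in colotomy, and 18 of 20 interstitial matrix genes were higher. In the 34 colotomy and 97 sham members with no UMI of Dcn, Pdgfra or Lum, 111 of 2757 genes were higher (4.03%) and 87 lower (3.16%), and 3 of 13 measured interstitial matrix genes were higher: Col1a1, Col1a2 and Fn1. Col1a1 was then at 775 CPM in colotomy and 201 CPM in sham (3.86-fold, 2.04 to 7.19), against 7414 and 563 CPM in all members. Sparc was at 1899 and 1752 CPM (1.08-fold, 0.779 to 1.48), Col3a1 at 659 and 610 CPM (1.08-fold, 0.599 to 1.84), and Mgp rested on 1 colotomy UMI (0.279, 0.00669 to 1.77). In the 54 colotomy and 69 sham members with such a UMI, 17 of 20 interstitial matrix genes were higher, on a background of 6.23% of 3241 genes higher and 7.53% lower, and Col1a1 was at 10317 CPM in colotomy and 953 CPM in sham (10.8-fold, 8.86 to 13.3). Leaving out cells by Dcn, Pdgfra or Lum also removes cells that make these genes themselves. Free fibroblast RNA, joined cells, fibroblasts that met the rule and matrix made by muscle cells therefore cannot be told apart. A UMI of Des was found in 3.33% of 3307 colotomy and 2.79% of 2980 sham fibroblast-marked cells, unthinned. Whether fibroblasts with more marker UMIs entered the members was not tested. Lymphocyte-marked cells also held Col1a1 more often in colotomy, in 20.2% against 4.29% in sham when thinned to equal depth. Whether the 3.86-fold ratio in members with no fibroblast gene exceeded such a library-wide difference was not tested.

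Part of the contractile difference was also smaller there. In all members 6 of 16 contractile genes outside the rule were lower in colotomy, with a median log2 ratio of -0.45. Acta2 was among them (287 of 84837 UMIs in colotomy, 1511 of 250244 in sham). In members with no fibroblast gene the median was -0.26. The classes shifted too: Actg2/Des-positive cells were 45 of 88 colotomy and 97 of 166 sham members, but 15 of 34 and 56 of 97 with no fibroblast gene. Acta2 was at 5464 CPM in colotomy and 6562 CPM in sham members with no fibroblast gene (0.833, 0.692 to 0.996), and was not called. Of 16 contractile genes outside the rule 4 were lower, Myl9 (0.591, 0.413 to 0.826), Tpm2 (0.580, 0.401 to 0.817), Tpm1 (0.637, 0.478 to 0.834) and Ppp1r14a, and none was higher. Ppp1r14a, CPI-17, which inhibits myosin phosphatase, had 1 UMI in colotomy and 48 in sham (0.105, 0.00259 to 0.611). Rgs5 was higher in colotomy in both sets, at 3171 and 1706 CPM in all members (1.86-fold, 1.59 to 2.17) and at 3991 and 2455 CPM without fibroblast genes (1.63-fold, 1.29 to 2.04), but the rule used it. Genes of the immediate early list, which cells switch on soon after a stimulus, were higher in 6 of 13 cases without fibroblast genes. They were Nr4a1 (4.39-fold, 1.99 to 9.60), the heat shock gene Hspa1b, Junb (3.19-fold, 1.99 to 5.02), Fos, Zfp36 and Egr1. The count was 5 of 17 in all members, 1 of 14 in members with a fibroblast UMI and 3 of 15 in Actg2/Des-positive cells, with none lower in any of these sets. Among all other kept cells 8 of 18 genes of this list were higher in colotomy and 0 lower. Among fibroblast-marked cells 4 of 18 were higher and 1 lower. Whether the counts in members exceeded those in other cells was not tested.

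Rgs5/Notch3-only cells were too few in colotomy for a gene-wide account, so only listed genes are given. Of 17 measured interstitial matrix genes 13 were higher in colotomy and none lower, on a background of 6.59% of 1805 genes higher and 5.93% lower. Fibroblast markers moved with them: 21 of 38 colotomy cells (55.3%) and 19 of 54 sham cells (35.2%) held a UMI of Dcn, Pdgfra or Lum, the summed fibroblast markers were at 10055 and 5888 CPM, and Dcn and Lum are among the 13 genes. Among all other kept cells 57.2% in colotomy and 26.8% in sham held such a UMI, and 21 of 21 interstitial matrix genes were higher in colotomy there. Col1a1 was at 3310 CPM in colotomy and 500 CPM in sham (6.62-fold, 4.52 to 9.91) and Fn1 at 1343 and 162 CPM (8.29-fold, 4.29 to 17.3). In the 17 colotomy and 35 sham cells of this class without those UMIs, Col1a1 was at 840 CPM (419 to 1503) and 190 CPM (82.2 to 375), and Fn1 at 687 CPM (314 to 1305) and 95.2 CPM (26.0 to 244). Among 14 contractile genes outside the rule Ppp1r14a alone was lower, and Acta2 was at 2529 and 2161 CPM (1.17-fold, 0.885 to 1.54). Pdgfrb (1.06-fold, 0.609 to 1.79) and Abcc9 (0.911, 0.440 to 1.78) were not called. Ebf1, a transcription factor of mural and stromal cells, was lower (0.369, 0.176 to 0.701), and Rgs4 was higher (2.83-fold, 1.06 to 7.72). Both genes were called in the same direction in fibroblast-marked cells and in all other kept cells, so these calls were not confined to this class. Of 4 measured immune markers the macrophage gene Lyz2 was higher (8.56-fold, with 32.4% of its colotomy UMIs in 1 cell) and the B cell gene Cd79a and Cd74, a gene of antigen-presenting cells, were lower. All 8 immune markers summed to 2404 CPM in colotomy and 3592 CPM in sham.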

How the data were processed

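Raw UMI counts per barcode for 32285 genes and 2 hashtags were made by the authors with Cell Ranger 6.0.0, per the file headers, and deposited as count matrices, 1 for each library. Per the submitters' processing notes STAR 2.5.1b and build mm10 were used; filters on barcodes are not given in the sources used here. Counts were summed over the cells of a class and divided by the gene UMIs of that class to give CPM. Ratios were called at 2-fold between classes and at 1.5-fold between libraries, with a 95% interval that excluded 1, for genes with at least 10 UMIs over both groups. Intervals were exact Poisson (CPM), conditional binomial (ratios) and Clopper-Pearson (shares), computed with scipy 1.17.1 under python 3.11.15. No test was made, with 1 library per group.

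Classes were named from listed genes only, and no clustering was done. Named genes were the 12 highest and 12 lowest by the interval bound nearest to 1 (24 by ratio for members against other cells), with at least 20 UMIs and 50 CPM where higher and at or above the level in other cells there; genes of the 25 lists are given besides. The members and lists were chosen with earlier results of these data known. Fibroblast-marked cells held at least 3 UMIs of Dcn, Pdgfra and Lum; endothelial-marked cells held Pecam1 and at least 2 UMIs of Cdh5, Kdr and Egfl7; lymphocyte-marked cells held Ptprc and at least 3 UMIs of Cd3e, Cd3d, Cd79a, Cd79b and Ms4a1. Cells were thinned to 500 UMIs for shares of cells with a UMI. Calls were tested on simulated Poisson counts without spread between cells. The intervals assume the same, so this cannot show how calls hold where 1 cell gives much of a sum. Alternatives covered the marker minimum, depth, tissue calls, fibroblast genes, free RNA and the deepest cells. Of the genes the rule names, 1 is not reported here.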

Additional observations from a re-analysis of the deposited data

Results flagged for a closer look

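The adult haemoglobin genes moved in opposite directions in the 2 classes. On the log2 scale, colotomy over sham, Hba-a1 stood at 1.52 in Actg2/Des-positive cells and at -3.72 in Rgs5/Notch3-only cells, Hba-a2 at 1.13 and -4.67, and Hbb-bs at 1.07 and -5.68. The difference between the classes was not tested. Hbb-bs rested on few cells: 1 cell gave 60.8% of 79 UMIs in colotomy and 70% of 120 in sham Actg2/Des-positive cells, and 1 cell gave 60.8% of 237 UMIs in sham Rgs5/Notch3-only cells, where colotomy had 2 UMIs. Erythroid markers summed to 1355 CPM in other colotomy cells and 8239 CPM in other sham cells.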

How the results depend on the processing

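Of 84 recomputed shares and counts 59 stayed within their error or within 1.5 times. Some could not move: asking for 2 UMIs of Actg2 and Des leaves the set of all members, and its counts of 352 and 275, unchanged. The 84 also include settings and comparisons chosen after seeing the data. With no minimum beyond 1 UMI the median log2 ratio of all genes turned, to -0.41 from 0.07 between the sham classes and to 0.67 from -0.07 in Actg2/Des-positive cells, colotomy over sham. In these ratios a 0 was set to a floor of 3 counts. A gene with 1 UMI in 1 group and none in the other can thereby be placed on the side that lacks it. These 2 medians are therefore not read as a change of direction. The share of members in colotomy was 1.37% with at least 2 marker UMIs, 0.606% with at least 5, 0.368% without cells holding Dcn, Pdgfra or Lum, and 0.703% after thinning; in sham it was 0.515%, 0.292% and 0.230% in the same first 3 cases and 0.261% with a tissue call. The ratio of shares was 3.79 with a tissue call and 1.60 without Dcn, Pdgfra or Lum. Of members with a tissue call, 80 in colotomy were called bowel and 0 MAT, and in sham 2 bowel and 27 MAT. Between the libraries that setting therefore sets bowel-called against mostly MAT-called cells. Between the sham classes, genes lower in Actg2/Des-positive cells numbered 169, against 152 higher, with at least 2 marker UMIs, 66 without Dcn, Pdgfra or Lum, and 168 with no minimum beyond 1 UMI; with a tissue call 37 were higher and 20 lower. In Actg2/Des-positive cells, genes higher in colotomy numbered 150 with at least 5 marker UMIs, 106 with a tissue call, where 132 were lower, 159, with 189 lower, where at least 2 UMIs of Actg2 and Des were asked for, and 55 without Dcn, Pdgfra or Lum, where 47 were lower. The larger count thus turned to the lower side under these settings: at least 2 marker UMIs or no minimum beyond 1 UMI (133 higher) between the classes, and a tissue call or 2 UMIs of Actg2 and Des between the libraries. In all members, genes higher in colotomy numbered 234 with at least 5 marker UMIs, 176 with 170 lower with a tissue call, and 111 with 87 lower without Dcn, Pdgfra or Lum. Tissue calls and the loss of Dcn, Pdgfra or Lum cells also leave fewer cells and genes. Of 14 named genes still measured without those cells, 10 lost their call in Actg2/Des-positive cells, and the cause was not tested. The comparison of all members, their split by a fibroblast UMI and the removal of the deepest cell were chosen after seeing the data. No paired analysis was possible because each group was 1 library. Depth limits genes under 10 UMIs.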
